A study of Mus musculus with 58 samples.

Results

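CLOCK chromatin immunoprecipitation (ChIP-seq) peaks of NIH3T3 cells were compared with those of mouse liver. All 1016 peaks of the NIH3T3 list and all 439 peaks of the liver list were used, which is 1455 of the 3172 peaks in the 4 peak lists of the series. A peak was called shared when its centre lay within 500 bp of a centre in the other list. NIH3T3 is an established mouse embryonic fibroblast line, here synchronised with 100 nM dexamethasone for 30 min, and its CLOCK list belonged to 6 libraries taken 18, 22, 26, 30, 34 and 38 h later. The liver CLOCK list belonged to 1 sample, which its label calls pooled, from C57/BL6 mice aged 12 to 14 weeks, fed freely under a light and dark cycle. The labels give neither its sampling time nor the number of animals. No genetic change was labelled in either context. The remaining 2 lists held BMAL1 peaks, 463 from NIH3T3 cells (7 libraries, 12 to 38 h after dexamethasone; the list itself is named for 20 h) and 1254 from liver at zeitgeber time 6. The liver BMAL1 list was made anew by the submitters from libraries of an earlier series and belongs to no sample here, so the liver CLOCK and BMAL1 lists are not matched samples. The study asked how binding of the clock factors depends on cellular context.

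CLOCK and BMAL1 (Arntl) are basic helix-loop-helix PAS proteins that bind DNA as a heterodimer, at E-box elements whose core is CACGTG or a close variant. The dimer activates the Period and Cryptochrome genes, whose products repress it, and the REV-ERB genes Nr1d1 and Nr1d2, whose products repress Arntl. It also drives the PAR bZIP factors Dbp, Tef and Hlf, which carry the rhythm to output genes through D-box elements.

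The lists hold positions only, with no height, score or value per library. Each context is therefore 1 list, peaks are not replicates of a context, and no test between the contexts could be made. The 95% Clopper-Pearson intervals below treat peaks as independent draws, which neighbouring peaks are not, and they cover counting error only. Neither the labelled tissue nor the cell line could be checked against marker genes from positions. Every NIH3T3 CLOCK peak spanned 50 bp and every liver one 250 bp, so centres rather than overlaps were compared.

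The shared sites were few and lay almost entirely at core clock and PAR bZIP genes. In NIH3T3 cells 27 of 1016 CLOCK peaks were shared, or 2.66% (95% interval 1.76 to 3.84), and in liver 28 of 439, or 6.38% (4.28 to 9.09). Without the peaks of Nr1d1, the gene with the most of them, 1.49% and 3.54% were shared. When peaks of both lists were joined wherever neighbouring centres lay under 1 kb apart, they formed 1335 loci, of which 14 held both contexts, 960 NIH3T3 peaks alone and 361 liver peaks alone. Through their nearest BMAL1 peak the 14 loci carried 11 gene names. They were Per1 and Per2, Cry1, Nr1d1 (3 loci) and Nr1d2, Dbp (2 loci), Tef and Hlf, Gm129, Mthfd1l and 2410080I02Rik. Gm129 is now called Ciart and encodes CHRONO, a repressor of the CLOCK and BMAL1 dimer. Of the 27 shared NIH3T3 peaks, 25 took the name of a gene in a list of 20 circadian genes through a BMAL1 peak within 10 kb (92.6%, 75.7 to 99.1), against 5 of the 989 peaks found in NIH3T3 cells alone (0.506%). In liver these numbers were 26 of 28 (92.9%, 76.5 to 99.1) and 5 of 411 (1.22%). All shared peaks had BMAL1 within 10 kb, but only 72 of the 989 and 31 of the 411 single-context peaks did. The contrast therefore reflects nearness to BMAL1 as well as the gene. With names taken from the nearest BMAL1 peak at any distance, 12 of 989 and 11 of 411 single-context peaks had such a name. In what follows a CLOCK peak is assigned to a circadian gene only where that BMAL1 peak lies within 10 kb.

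Promoter sequences are shown for genes on which the comparison turns: Ciart, Cry1, Per1 and Nr1d1, where both contexts had CLOCK peaks close to a start site, and Top1, which encodes DNA topoisomerase I and had one in NIH3T3 cells alone. Each is the 250 bases before a RefSeq start in assembly GRCm38.p6, 5' to 3' on the gene's strand, with CACGTG and AACGTG in capitals. They are, in order, chr3:95882229-95882478 (minus strand), chr10:85185055-85185304 (minus), chr11:69098699-69098948 (plus; the more upstream of 2 Per1 starts in the table), chr11:98775378-98775627 (minus) and chr2:160645647-160645896 (plus). The peak lists are in mm9, so these coordinates were not set against the peaks. For Per1, 2 start sites were inferred in mm9, and which of them the printed window precedes was not determined. It need not be the upstream Per1 start used below, which carries the shared peaks.
Ciart: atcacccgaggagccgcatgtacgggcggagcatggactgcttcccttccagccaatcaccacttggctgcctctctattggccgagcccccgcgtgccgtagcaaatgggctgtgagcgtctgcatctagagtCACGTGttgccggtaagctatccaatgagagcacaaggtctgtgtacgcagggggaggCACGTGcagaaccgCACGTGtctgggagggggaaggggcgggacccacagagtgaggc
Cry1: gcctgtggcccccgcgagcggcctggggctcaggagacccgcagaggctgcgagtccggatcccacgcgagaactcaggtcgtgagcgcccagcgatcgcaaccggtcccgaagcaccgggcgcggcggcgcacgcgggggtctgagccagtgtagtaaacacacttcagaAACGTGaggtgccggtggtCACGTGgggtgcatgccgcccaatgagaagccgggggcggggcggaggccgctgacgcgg
Per1: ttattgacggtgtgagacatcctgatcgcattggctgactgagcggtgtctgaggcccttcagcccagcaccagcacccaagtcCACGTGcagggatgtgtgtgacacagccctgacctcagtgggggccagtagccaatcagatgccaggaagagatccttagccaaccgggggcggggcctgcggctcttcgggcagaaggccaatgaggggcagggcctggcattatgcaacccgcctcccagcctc
Nr1d1: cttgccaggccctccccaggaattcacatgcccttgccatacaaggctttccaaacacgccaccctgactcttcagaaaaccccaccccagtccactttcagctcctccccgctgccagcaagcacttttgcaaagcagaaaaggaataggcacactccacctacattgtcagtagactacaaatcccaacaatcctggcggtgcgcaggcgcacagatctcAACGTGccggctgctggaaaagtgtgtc
Top1: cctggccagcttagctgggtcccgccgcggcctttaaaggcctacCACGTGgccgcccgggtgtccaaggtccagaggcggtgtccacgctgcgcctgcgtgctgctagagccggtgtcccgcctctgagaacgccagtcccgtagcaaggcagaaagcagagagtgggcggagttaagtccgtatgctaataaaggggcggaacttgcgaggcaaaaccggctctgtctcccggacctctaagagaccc

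Counting bases back from the start, CACGTG began at -116, -58 and -44 in Ciart, at -60 in Cry1, at -166 in Per1 and at -205 in Top1. AACGTG, the reverse complement of CACGTT, began at -79 in Cry1 and at -28 in Nr1d1, whose window held no CACGTG. Over all 32851 RefSeq windows of this length, searched on both strands, CACGTG was present in 6.02%, CACGTT in 3.85% and either in 9.57%, while 3 or more CACGTG, as in Ciart, occurred in 20 windows (0.0609%). No stretch of 6 letters can match both motifs. A CLOCK peak that had BMAL1 within 500 bp and whose centre lay in the 250 bp before a start site, inferred in mm9 from the authors' BMAL1 distances, was found for 25 genes with a RefSeq promoter. Of these, 17 had CACGTG in at least 1 of their promoters, compared with 6.86% of the 27025 genes in the table. Split by the list with a CLOCK peak in this window, these were 4 of 5 genes for both lists, 12 of 16 for the NIH3T3 list and 1 of 4 for the liver list. The split concerns the window only. Nr1d1, among the 4, and Cry2, among the 16, had CLOCK peaks of the other context outside it. Dbp was the gene of both contexts without a match in this window.

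The distance from each NIH3T3 peak to the nearest liver peak fell into separate ranges. Shared NIH3T3 peaks lay 0 to 341 bp from their liver partner, with a median of 63 bp, and 13 of the 27 lay within 60 bp. The next NIH3T3 peak, at Per1, was 3624 bp from a liver peak, followed by 2 peaks at Per2 at 5175 and 5432 bp, so no NIH3T3 peak lay between 341 and 3624 bp. The 3 nearest to the limit on the inside, at 341, 246 and 228 bp, were all at Nr1d1. Among liver peaks the shared distances ran from 0 to 494 bp with a median of 72.5 bp. The last inside the limit were at Dbp (494 bp), Nr1d1 (472 bp) and Gm129 (282 bp), and the first outside it at Gm129 (525 bp) and Nr1d1 (628 and 790 bp). Unshared peaks lay a median of 2285213 bp from the other list in NIH3T3 cells and 896623 bp in liver.

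**Figure D1:**
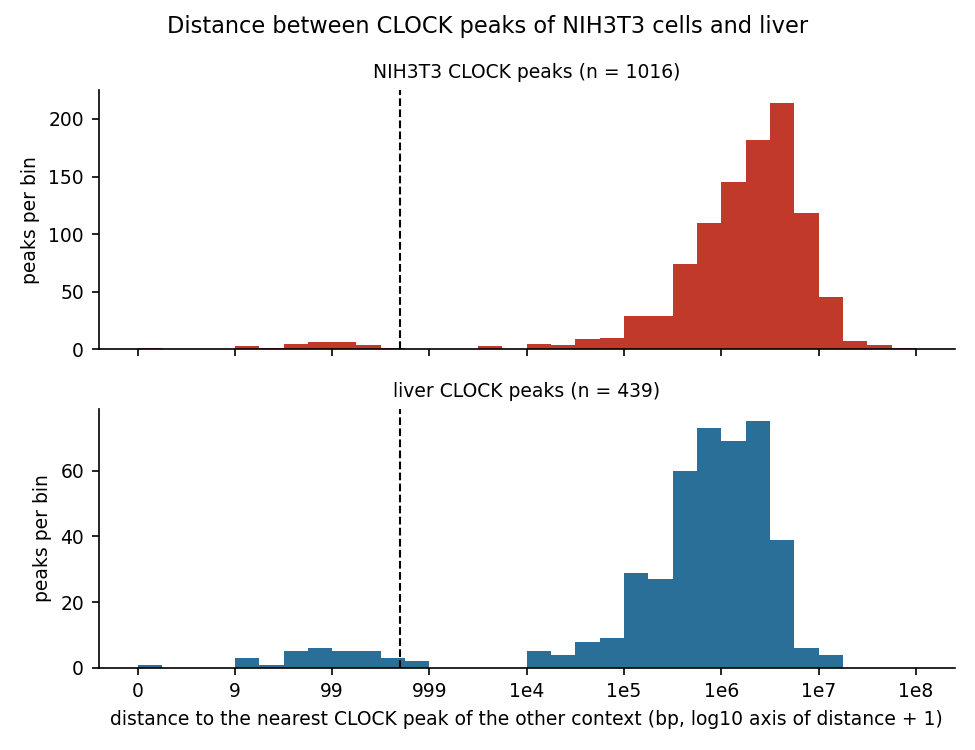
Number of CLOCK peaks (vertical axis) by the distance in bp from their centre to the nearest CLOCK centre of the other context, on a log axis with a dashed line at 500 bp, for the 1016 NIH3T3 and 439 liver peaks in separate panels. The 27 shared NIH3T3 peaks end at 341 bp and the next bar begins below the Per1 peak at 3624 bp, while the liver distances run on across the 500 bp limit.

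Nr1d1, which encodes the nuclear receptor REV-ERBalpha, held the largest share of the shared sites. It carried 12 of the 27 shared NIH3T3 peaks (44.4%) and 13 of the 28 shared liver peaks (46.4%). In NIH3T3 cells its 12 peaks spanned chromosome 11, 98635142 to 98644772 (mm9), and all 12 had a liver partner, 12 to 341 bp away with a median of 105 bp. In liver its 15 peaks spanned 98634252 to 98644928, and 13 had an NIH3T3 partner. The 2 without one lay at -6614 and +2270 bp from the upstream Nr1d1 start site, where minus is upstream.

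Around the Nr1d1 start the NIH3T3 CLOCK centres stood at -355, +39, +1169 and +1480 bp and the liver centres at -409, -3, +1156 and +1468 bp, so each NIH3T3 peak had a liver counterpart 12 to 54 bp away. BMAL1 peaks accompanied all of them. Farther upstream the lists held a run of CLOCK peaks without BMAL1. NIH3T3 centres lay at -3530, -4042, -4549, -5274, -5486, -5915 and -7242 bp. Liver centres lay at -3758, -4208, -5192, -5669, -6387, -6614, -6963 and -7370 bp. None of these 7 and 8 peaks had a BMAL1 peak of either list within 500 bp. Their nearest BMAL1 peak was 865 to 3744 bp away in NIH3T3 cells and 737 to 3899 bp away in liver. At the far end of the run a BMAL1 peak of both lists at -8107 bp lay beside the NIH3T3 CLOCK peak at -8101 bp and the liver peaks at -8157 and -7820 bp.

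**Figure D2:**
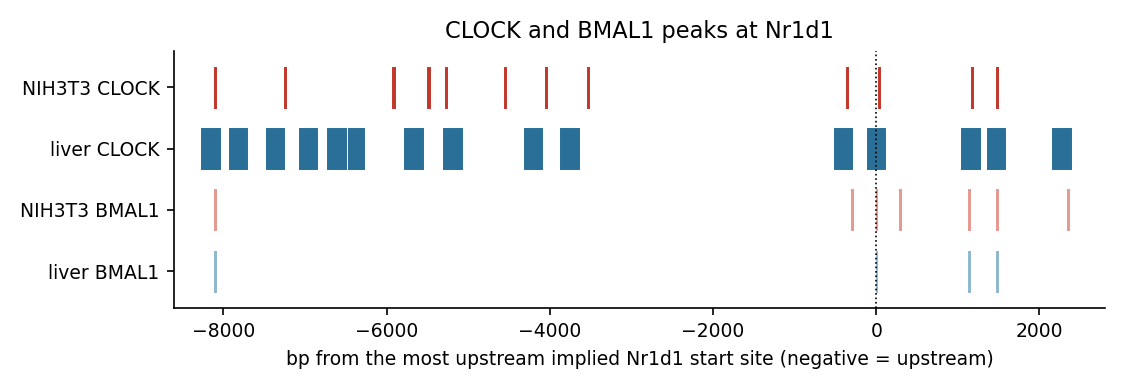
CLOCK and BMAL1 peaks of both contexts at Nr1d1, plotted by distance in bp from the upstream start site (0, gene running to the right), with 1 row for each list; each bar is a peak, and narrow peaks are widened to stay visible. Both CLOCK rows have a run of peaks between the BMAL1 peak at -8107 bp and -3530 bp, where neither BMAL1 row has a peak.

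Per1 and Per2 each had shared peaks close to the upstream start and unshared NIH3T3 peaks farther downstream. At Per1 the NIH3T3 CLOCK centres were at -336 and -104 bp and the liver centres at -394 and -50.5 bp from the upstream start, which makes 2 shared pairs 59 and 54 bp apart. A further NIH3T3 peak at +3573.5 bp had BMAL1 peaks of both lists 14.5 bp away and no liver CLOCK partner. It lay at -144 bp from a further start site inferred for Per1, to which the authors' BMAL1 distance of -158 bp refers. At Per2 the shared pair stood at -105 bp in NIH3T3 cells and -45 bp in liver. NIH3T3 cells had 2 more CLOCK peaks downstream, at +5130 and +5387 bp, with no BMAL1 peak of either list nearer than 5119 bp. Per3 had 2 BMAL1 peaks in each list and no CLOCK peak within 10 kb of them in either context.

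The Cryptochrome genes, which encode the repressor partners of the Period proteins, split. At Cry1 the NIH3T3 list had 2 peaks, at -306 and -83 bp, and the liver list 1 peak at -190 bp between them. The liver centre was 116 and 107 bp from the NIH3T3 centres, so both counted as shared with a single liver peak. At Cry2 each context had 1 CLOCK peak, but at different sites. The NIH3T3 peak lay at -196 bp (chromosome 2, 92274372 to 92274421) and the liver peak at +10183 bp (92263893 to 92264142), with 10379 bp between the centres. BMAL1 peaks of both lists stood at both sites, 4 bp from the NIH3T3 CLOCK centre and 9 bp from the liver one.

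The PAR bZIP genes Tef, Dbp and Hlf, and the repressor genes Nr1d2 and Gm129, each had shared peaks. At Tef the NIH3T3 centres were at +17 and +235 bp and the liver centres at +17 and +248 bp, thus 0 and 13 bp apart. The second pair lay at -133 and -120 bp from a further start site inferred for Tef. At Dbp the centres were at -280, -22 and +2754 bp in NIH3T3 cells and at -85, +2605 and +3248 bp in liver. The NIH3T3 peaks were 195, 63 and 149 bp from their nearest liver centre. From a further start site inferred for Dbp, the peaks at +2754 and +2605 bp lay at -47 and -196 bp. The Hlf pair lay far from the start, at -27252.5 and -27284.5 bp, where both BMAL1 lists had a peak at -27255 bp. Nr1d2, which encodes REV-ERBbeta, had a pair inside the gene, at +497 bp in NIH3T3 cells and +452 bp in liver. At Gm129 the single NIH3T3 peak at -108 bp faced 3 liver peaks at -16, -390 and -633 bp. Bhlhe41, which encodes the repressor DEC2, had a CLOCK peak in NIH3T3 cells alone, at +9717 bp, 2.5 bp from a BMAL1 peak of both lists. Bhlhe40, Usp2 and Nfil3 had BMAL1 peaks in at least 1 list and no CLOCK peak within 10 kb of them in either. Arntl, Clock, Npas2 and Rora named no BMAL1 peak, so a CLOCK peak could not be linked to them.

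**Figure D3:**
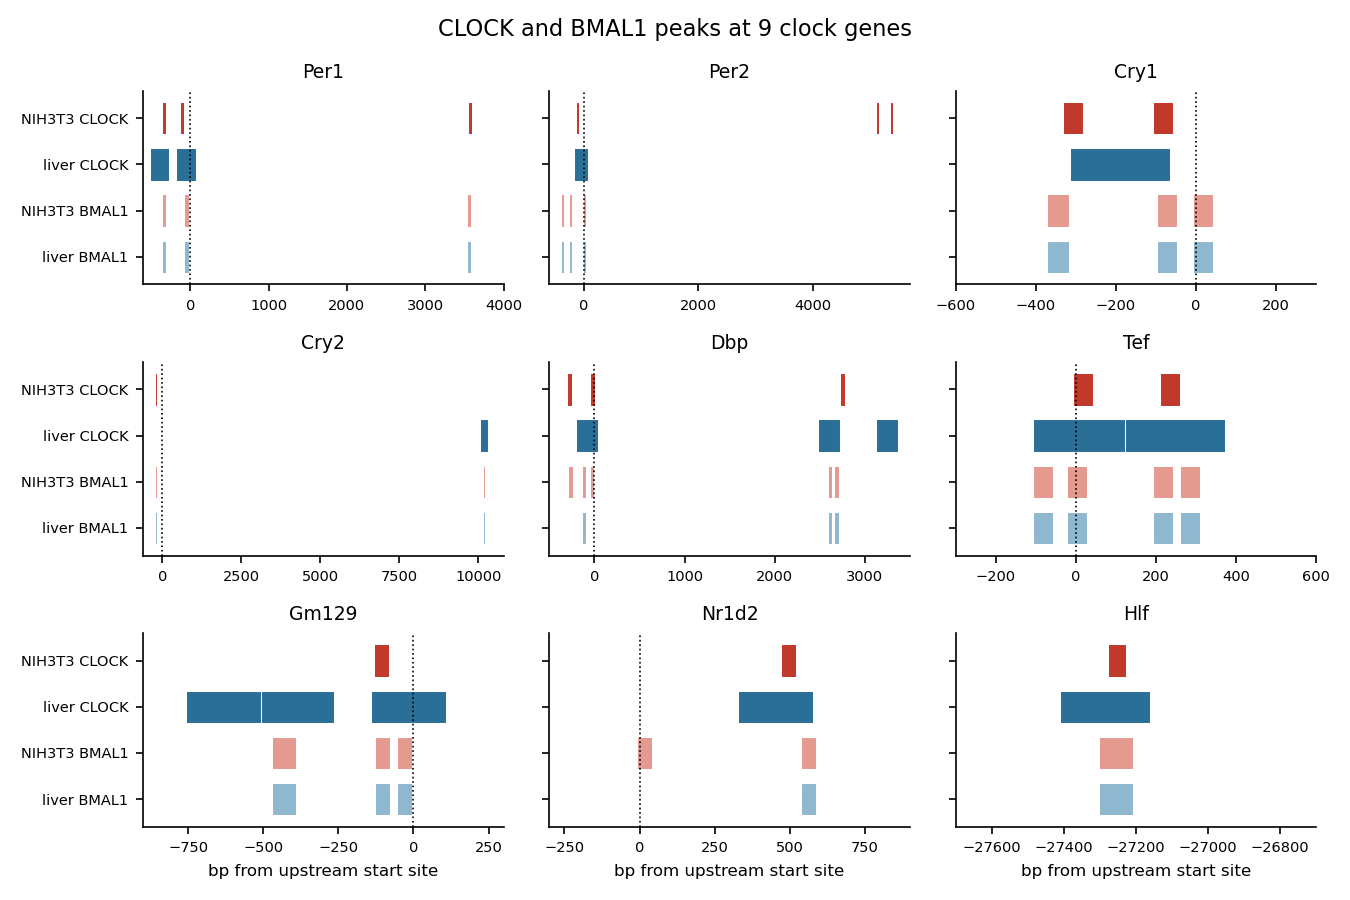
CLOCK and BMAL1 peaks at 9 circadian genes, 1 panel for each, by distance in bp from the most upstream start site (dotted line); bars are peaks drawn at their width, 50 bp for NIH3T3 CLOCK and 250 bp for liver CLOCK, with a white edge between neighbours. The Cry2 panel shows the NIH3T3 peak at -196 bp and the liver peak at +10183 bp, and the Tef panel shows centres 0 and 13 bp apart.

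Outside the circadian list there were 2 shared loci. One lay in Mthfd1l, which encodes a mitochondrial enzyme of folate metabolism, with the NIH3T3 peak at chromosome 10, 6372765 to 6372814, and the liver peak at 6372695 to 6372944. These stood 619 and 649 bp downstream of the start. The other was named by 2410080I02Rik, at +779 bp in NIH3T3 cells (chromosome 19, 23210145 to 23210194) and +931 bp in liver (23210197 to 23210446), 152 bp apart. From the inferred start of the neighbouring Klf9, which encodes a Kruppel-like transcription factor, the same peaks lay at -5547 and -5395 bp. Both pairs had BMAL1 peaks of both lists within 82 bp.

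CLOCK peaks clustered more in the liver list, and the shared peaks were the most clustered of each. NIH3T3 peaks formed 975 loci when centres under 1 kb apart were joined, with 938 single peaks, 36 pairs and 1 locus of 6. Liver peaks formed 375 loci, with 325 single peaks, 44 pairs and 6 loci of 3 or more. A locus of at least 2 peaks held 78 of 1016 NIH3T3 peaks (7.68%, 6.12 to 9.49) and 114 of 439 liver peaks (26%, 21.9 to 30.3). For shared peaks the share was 20 of 27 in NIH3T3 cells (74.1%, 53.7 to 88.9) and 21 of 28 in liver (75%, 55.1 to 89.3). For peaks of a single context it was 58 of 989 (5.86%, 4.48 to 7.52) and 93 of 411 (22.6%, 18.7 to 27). Without the Nr1d1 peaks, 8 of 15 shared peaks stood in such loci in each context (53.3%). The 2 measures are linked, since a single partner can make neighbouring peaks shared, as at Cry1 and Gm129. How much of the difference follows from this was not tested. Neighbouring centres were never under 201 bp apart in the NIH3T3 list or 203 bp in the liver list, so a smaller spacing cannot be read from these lists.

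Gaps between neighbouring centres of 1 to 10 kb numbered 15 in NIH3T3 cells and 5 in liver, and gaps of 10 to 50 kb numbered 23 and 1. Gaps up to 300 bp were alike in number, 27 and 31, although the liver list held fewer peaks. At the shared loci the spacing varied. It was 231 bp in NIH3T3 cells and 344 bp in liver at Per1, and 218 and 231 bp at Tef. At Dbp the spacings belonged to different loci and cannot be compared. In NIH3T3 cells the spacing was 258 bp, between the peaks at -280 and -22 bp. In liver it was 643 bp, between the peaks at +2605 and +3248 bp. Within the Nr1d1 loci it ran from 212 to 859 bp in NIH3T3 cells and from 227 to 984 bp in liver. Most other clusters lay far from BMAL1. Of 37 NIH3T3 loci with at least 2 peaks, 25 were more than 10 kb from any BMAL1 peak, as were 41 of 50 in liver. None of those 25 and 41 could hold a shared peak, since all shared peaks lay within 10 kb of BMAL1. The liver loci of 3 or more peaks were 2 at Nr1d1 (10 and 3 peaks), 1 at Gm129 (3 peaks) and 3 far from BMAL1. The last were chromosome 1, 26743268 to 26745113 (4 peaks, nearest BMAL1 at 9782.3 kb), chromosome 6, 89524469 to 89525192 (3 peaks, 889 kb) and chromosome 7, 59789816 to 59790646 (3 peaks, 359 kb).

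Along the genome, chromosome 11 held 15 of the 27 shared NIH3T3 peaks and 16 of the 28 shared liver peaks, with Per1, Nr1d1 and Hlf, although its share of all peaks was 8.46% and 9.34%. Shared NIH3T3 peaks were absent from 12 of the 20 chromosomes that held CLOCK peaks. Chromosome 7 was the 1 chromosome where the intervals of the contexts did not overlap, with 38 NIH3T3 peaks (3.74%, 2.66 to 5.1) and 37 liver peaks (8.43%, 6 to 11.4), which formed 36 and 29 loci. The X chromosome held 7 NIH3T3 peaks and 1 liver peak.

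BMAL1 separated shared from single-context CLOCK peaks more than it separated the contexts. A BMAL1 peak of either list lay within 500 bp of 85 of 1016 NIH3T3 CLOCK peaks (8.37%, 6.74 to 10.2) and 48 of 439 liver CLOCK peaks (10.9%, 8.17 to 14.2), intervals that overlap. Among shared peaks it did so for 20 of 27 (74.1%, 53.7 to 88.9) and 20 of 28 (71.4%, 51.3 to 86.8). Among single-context peaks it did so for 65 of 989 (6.57%, 5.11 to 8.3) and 28 of 411 (6.81%, 4.57 to 9.7). Without the Nr1d1 peaks, 15 of 15 shared NIH3T3 peaks and 14 of 15 shared liver peaks had BMAL1 within 500 bp. The 7 shared NIH3T3 peaks beyond 500 bp were all in the Nr1d1 run. So were 7 of the 8 in liver, and the eighth lay 560 bp from BMAL1 at Dbp. Within 5 kb of BMAL1 lay all 27 and 28 shared peaks (lower bounds 87.2% and 87.7%) and 69 of 989 and 30 of 411 of the others. The median distance to BMAL1 was 38 bp for shared NIH3T3 peaks and 56.5 bp for shared liver peaks, against 781 and 889 kb for the others.

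**Figure D4:**
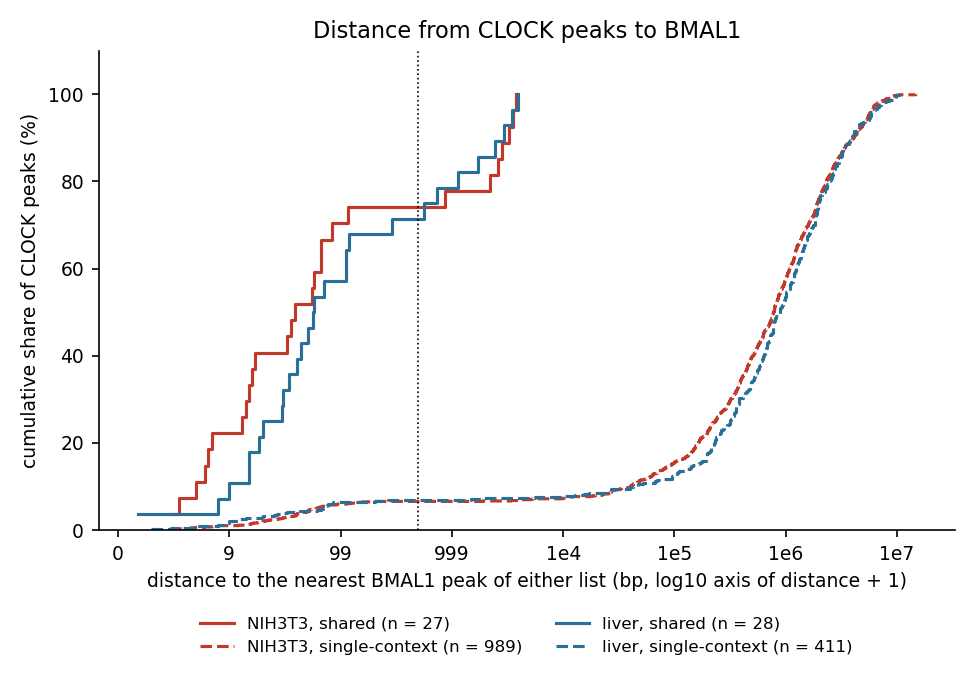
Cumulative percent of CLOCK peaks (vertical axis) by distance in bp to the nearest BMAL1 peak of either list, on a log axis with a dotted line at 500 bp, for shared and single-context peaks of NIH3T3 cells and liver. The shared curves reach 74.1% and 71.4% at 500 bp and 100% within 5 kb, and the single-context curves stand at 6.57% and 6.81% at 500 bp.

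The lists that held BMAL1 within 500 bp differed between shared and single-context peaks. Here BMAL1 of both lists means a peak of each list within 500 bp, not always the same peak. All 20 shared peaks with BMAL1 in each context had BMAL1 of both lists in this sense. At the shared NIH3T3 peak at -355 bp of Nr1d1, NIH3T3 BMAL1 was 57 bp away and liver BMAL1 359 bp. At that at -280 bp of Dbp, they were 15 and 162 bp away. Entries 1 to 263 were the same in both BMAL1 lists, so much of this BMAL1 is 1 set of positions held by both. Whether it was called separately in each context is not stated. The shared peaks made up 20 of the 57 NIH3T3 CLOCK peaks at BMAL1 of both lists (35.1%) and 20 of the 31 in liver (64.5%). At BMAL1 of 1 list alone, 0 of 28 NIH3T3 CLOCK peaks and 0 of 17 liver CLOCK peaks were shared, which allows up to 12.3% and 19.5% (the upper bounds of the intervals). Of the 65 single-context NIH3T3 peaks at BMAL1, 37 were at BMAL1 of both lists, 23 at NIH3T3 BMAL1 alone and 5 at liver BMAL1 alone. Of the 28 in liver, 11, 1 and 16 were, in that order.

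Named through BMAL1 within 500 bp, NIH3T3 CLOCK peaks reached 70 genes and liver CLOCK peaks 35, with 12 in both, 58 in NIH3T3 cells alone and 23 in liver alone. The 12 were Per1, Per2, Cry1, Cry2, Nr1d1, Nr1d2, Dbp, Tef, Hlf, Gm129, Mthfd1l and 2410080I02Rik, of which 10 are in the circadian list. They are 12 of 70 and 12 of 35 of the genes in the 2 lists.

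NIH3T3 cells alone had CLOCK at the promoters of genes with varied functions. Top1 had its CLOCK centre at -186 bp, 2 bp from an NIH3T3 BMAL1 peak and 294539 bp from the nearest liver one. Atxn3, which encodes a deubiquitinase, had it at -114 bp, and Nup50, a nuclear pore component, at -414 bp. At Pcx, which encodes pyruvate carboxylase, it was at -363 bp, and at Adh5, an alcohol dehydrogenase, at -294 bp. At Atxn3, Nup50, Pcx and Adh5 BMAL1 peaks of both lists were within 29.5 bp of the CLOCK centre, and no liver CLOCK peak lay within 500 bp. At Pik3ip1, which encodes an inhibitor of phosphoinositide 3-kinase, the CLOCK centre was at -19 bp with BMAL1 in the NIH3T3 list alone. At Usp36, a deubiquitinase gene, NIH3T3 CLOCK was at +32 bp with BMAL1 in the liver list alone.

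Liver alone had CLOCK at several genes whose BMAL1 peak was also in liver alone. Slc2a5, which encodes a fructose transporter, had a liver CLOCK centre at +3832 bp, Chka (choline kinase) at -18556 bp and Klf13 (a Kruppel-like factor) at +7041 bp. Etfa, a subunit of the electron transfer flavoprotein, was named by a peak 57079 bp downstream of its start. For these 4 genes liver BMAL1 was 4 to 71 bp from the CLOCK centre and NIH3T3 BMAL1 at least 450838 bp away. At other genes BMAL1 of both lists stood under a liver CLOCK peak. Slc20a1, a sodium and phosphate cotransporter gene, had 2 liver CLOCK peaks, at -444 and -21 bp, and the nearest NIH3T3 CLOCK peak was 245034 bp from the first. Katnal1, a katanin-like gene, had one at -84 bp, and Ncl, which encodes nucleolin, one at +679 bp.

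Where a start site could be inferred, CLOCK peaks at BMAL1 lay within 1 kb of it for 46 of 72 NIH3T3 peaks (63.9%) and 21 of 40 liver peaks (52.5%). Shared peaks were there in 16 of 20 cases in NIH3T3 cells (80%, 56.3 to 94.3) and 15 of 20 in liver (75%, 50.9 to 91.3). Single-context peaks were there in 30 of 52 cases in NIH3T3 cells (57.7%, 43.2 to 71.3) and 6 of 20 in liver (30%, 11.9 to 54.3). The intervals of shared and single-context peaks overlapped in each context, and some genes gave several of the shared peaks.

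The NIH3T3 list was not in genome order, and its shared peaks stood together at its head. All 27 were among the first 47 entries, starting with both Per1 promoter peaks and both Tef peaks, followed by Per2. Among entries 1 to 50, 27 were shared (54%) and 38 had BMAL1 within 500 bp (76%). Entries 51 to 100 held 0 shared peaks, which allows up to 7.11%, and 16 at BMAL1 (32%). The share at BMAL1 was 15% in entries 101 to 200, 3% in 201 to 400, 1.67% in 401 to 700 and 1.58% in 701 to 1016. The meaning of this order is not stated in the labels or the list. The 2 unshared Per2 peaks were entries 341 and 473, and the Cry2 peak was entry 16. The liver list was in order of position, so no such reading was possible there.

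**Figure D5:**
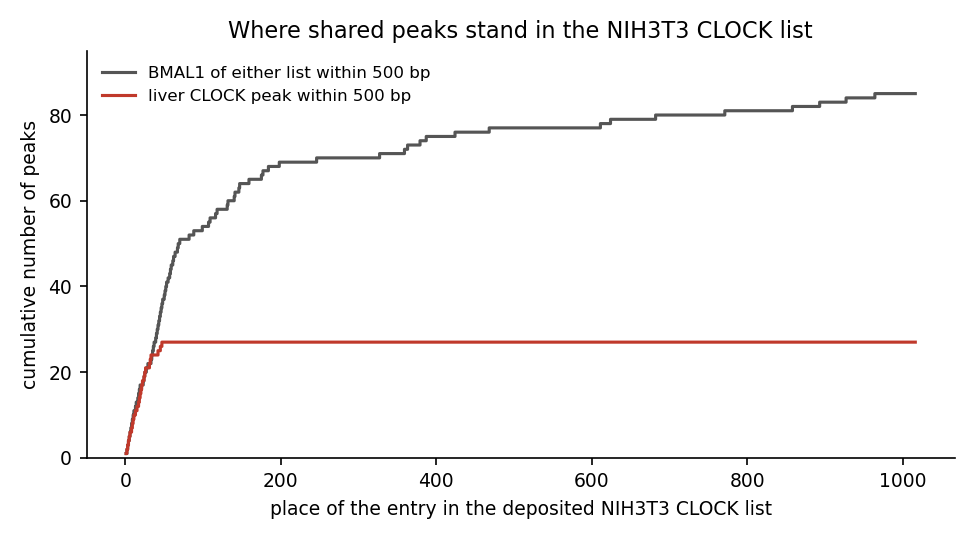
Cumulative number of NIH3T3 CLOCK peaks (vertical axis) with a liver CLOCK peak within 500 bp (red) and with a BMAL1 peak of either list within 500 bp (grey), by place in the deposited NIH3T3 CLOCK list. The red line reaches 27 at entry 47 and stays flat to entry 1016, while the grey line goes on to 85.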

How the data were processed

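CLOCK and BMAL1 had been mapped by ChIP-seq. Bowtie, SAMtools, bedtools and the build mm9 are named per the submitters' processing notes; their roles and versions, and the caller and thresholds of the peaks, are not stated. Positions in the deposited lists are in mm9, and the authors' BMAL1 lists add a gene and a signed distance in bp to its start. Entries 1 to 263 were the same in both BMAL1 lists. The gene column of the NIH3T3 CLOCK list was not used. Depth is unknown. The liver BMAL1 list comes from libraries of another series, per the design text. The libraries of RNA, RNA polymerase and input were not analysed here.

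Starts are printed counting from 1. Each CLOCK centre was set against the nearest centre of the other list and of either BMAL1 list, whose gene names the locus. Start sites in mm9 were computed from the authors' BMAL1 distances (887 of 1137 genes). Strand came from RefSeq, which matched 1061 genes. Where RefSeq gave none, as for Per2, the strand was the one on which more pairs of the gene's peaks implied the same start within 2 bp. Of 145 genes with 2 or more peaks and a RefSeq strand, 111 had 2 peaks giving the same start within 2 bp. Positions given from a start can thus be off by some bp. Where several starts were inferred for a gene, as for Per1 and Dbp, positions can differ by kb with the start used. Circadian genes were placed from the most upstream start unless stated, and the counts near start sites used the nearest. Promoters are RefSeq GRCm38.p6, and Per2 has no entry. Named genes were those of shared loci, a list of 20 circadian genes, loci of 3 or more peaks near BMAL1, the closest 30 single-context peaks at BMAL1 in each context and the peaks nearest the limit; some genes the rule covers are not reported here. The members and lists were chosen with earlier results of these data known. Intervals are Clopper-Pearson at 95%, and no p-value was computed. Other sharing distances, joining distances and units were tried. The code was tested on simulated data, where 40 planted shared peaks of 1016 were recovered in each of 20 draws. Tables and intervals were made with pandas 2.3.3, NumPy 2.4.6 and SciPy 1.17.1 under Python 3.11.15, and figures with Matplotlib 3.10.9.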

Additional observations from a re-analysis of the deposited data

How the results depend on the processing

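Of 28 alternatives, 23 gave a share inside the interval reported and 5 did not. With loci under 1 kb counted once, the shared part was 1.54% in NIH3T3 cells (15 of 975 loci) and 3.73% in liver (14 of 375). Without the Nr1d1 peaks, an alternative chosen after seeing the data, it was 1.49% (15 of 1004) and 3.54% (15 of 424). The first counts each cluster once. Joining centres under 10 kb put 9.74% of NIH3T3 peaks in loci of at least 2, since more neighbours are joined. An overlap of at least 1 bp in place of the centre distance gave 1.97% and 4.33%, and limits of 200 and 1000 bp gave 2.36% and 2.66% in NIH3T3 cells and 5.01% and 7.06% in liver. The share was lower in NIH3T3 cells than in liver under each of these settings. The counts of shared peaks were close in the 2 lists each time, for example 20 and 19 by overlap. The order of the shares therefore follows from the lengths of the lists, 1016 and 439 peaks, and is no separate result. No paired analysis was possible because the lists hold no values per library. No library could be left out for the same reason, and depth, sampling time and peak calling cannot be told apart from the context.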

Other observations

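NIH3T3 BMAL1 peaks with a liver BMAL1 centre within 500 bp were grouped by the CLOCK peaks within 500 bp of them. Of 274 such peaks, counted in the NIH3T3 list, 30 had CLOCK of both contexts (10.9%), 48 had NIH3T3 CLOCK alone (17.5%), 15 had liver CLOCK alone (5.47%) and 181 had neither (66.1%). A single CLOCK peak can serve several of these BMAL1 peaks.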
